A study of Homo sapiens with 12 samples.

Results

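The genes examined were 10 genes for proteins of the nuclear lamina and of the high-mobility-group (HMG) families that are tied to cellular senescence: *LMNA*, *LMNB1*, *LMNB2*, *LBR*, *TMPO*, *HMGB1*, *HMGB2*, *HMGB3*, *HMGA1* and *HMGN2*. They were taken by gene symbol from the table of read counts, in which each symbol stood on 1 row, so that they made up 10 of its 60612 named rows. The choice was by gene family and not by a cutoff on measured values, but it was made with earlier results of these data known. All 10 were well covered, with 476 to 72484 reads per library, and none was lost to a filter on low counts.

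The nuclear lamina is a mesh of lamin filaments beneath the inner nuclear membrane. B-type lamins stay attached to the membrane through a lipid anchor, while A-type lamins are also found in the nuclear interior, and membrane proteins such as the lamin B receptor tether heterochromatin to the mesh. HMG proteins are small, abundant chromatin proteins that bend DNA or bind nucleosomes. Loss of lamin B1 and of HMGB2, and release of HMGB1 from the nucleus, are widely used as marks of senescent cells, and CDK4/6 inhibitors can drive some tumour cells into a senescence-like arrest.

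The cells were ZR-75-1, an established oestrogen receptor-positive breast cancer line. Isogenic clones had been derived by CRISPR from bulk cells with a non-targeting guide (sgControl) or a guide against *RB1* (*RB1* knockout), and how many clones stand behind each genotype is not given in the sources used here, so that the genotype and the particular clones cannot be told apart. Each genotype was kept for 5 days in abemaciclib at 500 nM, which blocks CDK4 and CDK6 and so the phosphorylation of the retinoblastoma protein Rb, or in a matched volume of DMSO, its solvent. Each of the 4 groups was sequenced as 3 replicates, described as biological replicates.

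Libraries held 39907318 to 81636393 reads. *RB1* was at 39.6 to 63.5 normalized counts (reads divided by a size factor for the library) in the 6 libraries labelled knockout and at 2252.3 to 4824.6 in the sgControl libraries, so no library went against its label. Within sgControl cells *RB1* was at 4153.7 to 4824.6 in DMSO and at 2252.3 to 2488.6 in abemaciclib. That fall had a log2 fold change of -0.95 (SE 0.08, DESeq2 adjusted p = 3.53e-29). All 8 luminal epithelial markers checked were present (summed normalized counts 630181.1 to 971892.5 per library). Of the 6 basal and stromal markers, *KRT5*, *KRT14*, *VIM* and *COL1A2* had at most 5.3 normalized counts in any library. The summed level of that list was 2120.6 to 2412.1 in sgControl cells with DMSO and 2801.3 to 3042.0 with abemaciclib, and 1894.9 to 2061.4 and 2575.1 to 2678.6 in knockout cells, nearly all of it *COL1A1* (1878.5 to 3031.4). Of the 6 immune and endothelial markers, *CD3E* had no reads in any library and *PTPRC* and *PECAM1* had at most 3.4 normalized counts. The summed level of that last list was 48.5 to 62.4 in sgControl cells in DMSO, 542.1 to 644.0 in sgControl cells in abemaciclib, 52.3 to 70.5 in knockout cells in DMSO and 108.4 to 121.0 in knockout cells in abemaciclib. Most of the rise in sgControl cells was in the lysozyme gene *LYZ* (437.5 to 544.4 in abemaciclib). Mitochondrial transcripts took 2.82 to 3.99% of reads in DMSO-treated sgControl cells and 7.22 to 8.53% in abemaciclib, against 3.78 to 4.13% and 5.44 to 7.39% in knockout cells. The part of these shifts in the results below was not tested.

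Promoter sequences were examined because most of the genes moved together. RefSeq promoters of 300 bases (250 before to 50 after the annotated start, GRCh38.p14) were found for 9 of the 10 genes; *HMGB2* had no entry. They were searched on both strands for the NF-Y box CCAAT, for the cell cycle element CHR (TTTGAA or TTCGAA) and for the E2F site in the spellings TTTCCCGC, TTTGGCGC, TTTCGCGC and TTTGCCGC. CCAAT was present in 6 of 9 promoters, against 35.7% of 27305 RefSeq promoters. CHR was present in 2 of 9 (*LMNB2* and *HMGB3*), against 16.6%. An E2F spelling was present in 1 of 9 (*LMNA*), against 3.33%. No hits of different motifs overlapped. These matches describe the letters in the window and are not evidence of binding.

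The 5 promoters printed here are the 3 with repeated CCAAT boxes, that of *LMNA* with its E2F spelling, and that of *LMNB1*, which held none of the motifs. Capitals mark the motif hits, each sequence reads 5′ to 3′ on the strand of the gene, and its build is GRCh38.p14. In *TMPO* (chr12:98515323-98515622, plus strand) the CCAAT boxes start 32 bases apart. In *HMGB1* (chr13:30465887-30466186, minus strand; the RefSeq start lies within the longer GENCODE gene) they are 44 and 31 bases apart. In *HMGB3* (chrX:150983085-150983384, plus strand; also within the GENCODE gene, which starts at 150980509), which holds a CHR before its CCAAT boxes as well, they are 43 and 46 bases apart. In *LMNA* (chr1:156082323-156082622, plus strand) the E2F spelling begins at position -23 from the start and the CCAAT box at -146. The *LMNB1* window is chr5:126776373-126776672 on the plus strand.
TMPO: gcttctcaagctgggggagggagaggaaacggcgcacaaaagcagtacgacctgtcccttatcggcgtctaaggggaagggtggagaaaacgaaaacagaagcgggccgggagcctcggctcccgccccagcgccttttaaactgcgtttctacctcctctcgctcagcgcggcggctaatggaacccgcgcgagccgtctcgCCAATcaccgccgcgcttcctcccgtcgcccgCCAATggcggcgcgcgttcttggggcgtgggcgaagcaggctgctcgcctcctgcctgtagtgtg
HMGB1: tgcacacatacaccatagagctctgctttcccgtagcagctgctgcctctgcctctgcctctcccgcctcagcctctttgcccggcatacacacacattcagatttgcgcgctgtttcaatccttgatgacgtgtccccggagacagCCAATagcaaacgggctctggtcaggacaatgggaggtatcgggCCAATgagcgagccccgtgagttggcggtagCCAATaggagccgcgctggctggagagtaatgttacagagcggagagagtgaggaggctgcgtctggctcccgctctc
HMGB3: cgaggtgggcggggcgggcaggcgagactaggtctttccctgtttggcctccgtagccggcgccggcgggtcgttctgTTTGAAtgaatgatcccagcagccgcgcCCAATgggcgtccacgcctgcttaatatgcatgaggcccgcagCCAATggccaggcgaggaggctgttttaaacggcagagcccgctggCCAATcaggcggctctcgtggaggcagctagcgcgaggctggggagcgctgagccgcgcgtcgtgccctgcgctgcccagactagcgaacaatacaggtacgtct
LMNA: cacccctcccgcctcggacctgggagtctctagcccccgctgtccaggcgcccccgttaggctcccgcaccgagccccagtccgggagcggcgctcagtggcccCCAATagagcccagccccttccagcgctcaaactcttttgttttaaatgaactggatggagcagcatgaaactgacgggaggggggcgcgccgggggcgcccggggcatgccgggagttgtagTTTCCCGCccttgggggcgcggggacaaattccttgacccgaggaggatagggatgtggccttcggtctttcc
LMNB1: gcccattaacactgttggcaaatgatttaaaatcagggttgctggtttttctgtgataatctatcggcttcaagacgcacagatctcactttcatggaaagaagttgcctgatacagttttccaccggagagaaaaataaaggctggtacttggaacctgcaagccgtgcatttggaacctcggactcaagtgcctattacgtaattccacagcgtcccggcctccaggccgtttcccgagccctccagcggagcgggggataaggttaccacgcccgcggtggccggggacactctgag

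The first comparison asked what CDK4/6 inhibition does to these genes when Rb is present. All 10 fell in sgControl cells (DESeq2, adjusted p under 0.05), and for each the DMSO and abemaciclib libraries did not overlap. The falls ranged from a log2 fold change of -0.43 for *LMNA* to -5.04 for *HMGB2*, with a median of -1.76, against a median of 0.01 over the 22723 genes tested. Of all genes tested, 24.8% were lower and 25% higher. Scaling by total counts instead put the median gene at -0.12 and changed the split over all genes from 5675 higher and 5630 lower to 4532 and 6779, but it left every member's fall past the threshold.

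*LMNB1* (chromosome 5, 126776623 to 126837020, GRCh38, plus strand) encodes lamin B1, a B-type lamin. Its normalized counts were 13539.9, 13645.3 and 12922.9 in DMSO-treated sgControl cells and 1430.1, 1452.4 and 1495.8 in abemaciclib. In *RB1*-knockout cells they were 13760.5, 14056.3 and 13738.3 in DMSO and 11544.4, 11922.0 and 11670.4 in abemaciclib. The sgControl libraries in abemaciclib thus lay far below the other 9, which stayed within a narrow band. The fall was 9.15-fold in sgControl cells (log2 fold change -3.19 ± 0.05, SE) and 1.18-fold in knockout cells (-0.24 ± 0.04, DESeq2 adjusted p = 5.66e-08). In bulk RNA of this kind, fewer cells with the transcript and less transcript per cell cannot be told apart.

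*LMNB2* (chromosome 19, 2427638 to 2456959, minus strand), which encodes the other B-type lamin, was at 22180.5, 25495.2 and 27083.7 normalized counts in DMSO-treated sgControl cells and at 7845.4, 9033.9 and 8322.1 in abemaciclib. Knockout cells had 23538.5, 24154.0 and 24318.6 in DMSO and 17075.3, 19287.0 and 18606.0 in abemaciclib. It fell in both genotypes, 2.97-fold (log2 fold change -1.57 ± 0.08) and 1.31-fold (-0.39 ± 0.08, DESeq2 adjusted p = 9.94e-06). Its fall in knockout cells was the most negative of the 10.

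*LMNA* (chromosome 1, 156082573 to 156140081, plus strand) encodes lamins A and C, which gene counts do not separate. Its normalized counts were 58571.1, 51885.9 and 45661.7 in DMSO-treated sgControl cells and 40413.5, 37999.6 and 37350.3 in abemaciclib. Knockout cells had 58215.9, 63054.1 and 56998.4 in DMSO and 49437.9, 46802.5 and 46466.6 in abemaciclib. The log2 fold changes of this A-type lamin gene were -0.43 ± 0.08 in sgControl cells (DESeq2 adjusted p = 4.26e-07) and -0.32 ± 0.08 in knockout cells (adjusted p = 5.56e-04), so that in sgControl cells its fall was the least negative of the 3 lamin genes and in knockout cells it lay between the other two.

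Levels were also divided by kilobases of exon, counting every annotated exon of a gene whether or not it is used in these cells. Setting genes side by side in this way assumes the whole-transcript kit of the labels, while the general methods name a 3′ kit. On this scale lamin transcripts in sgControl cells in DMSO were in the order *LMNA* (6392.3 ± 793.0 normalized counts per kilobase, SD, n = 3), *LMNB2* (4619.1 ± 463.7) and *LMNB1* (3680.0 ± 107.4), with no overlap between neighbours. In sgControl cells in abemaciclib the order was the same with wider gaps, at 4739.9 ± 198.3, 1557.1 ± 110.9 and 401.7 ± 9.2. In knockout cells in abemaciclib the levels were 5843.1 ± 199.9, 3396.3 ± 210.0 and 3223.8 ± 52.9, where the ranges of *LMNB2* (3165.0 to 3575.0) and *LMNB1* (3177.6 to 3281.6) overlapped.

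**Figure D1:**
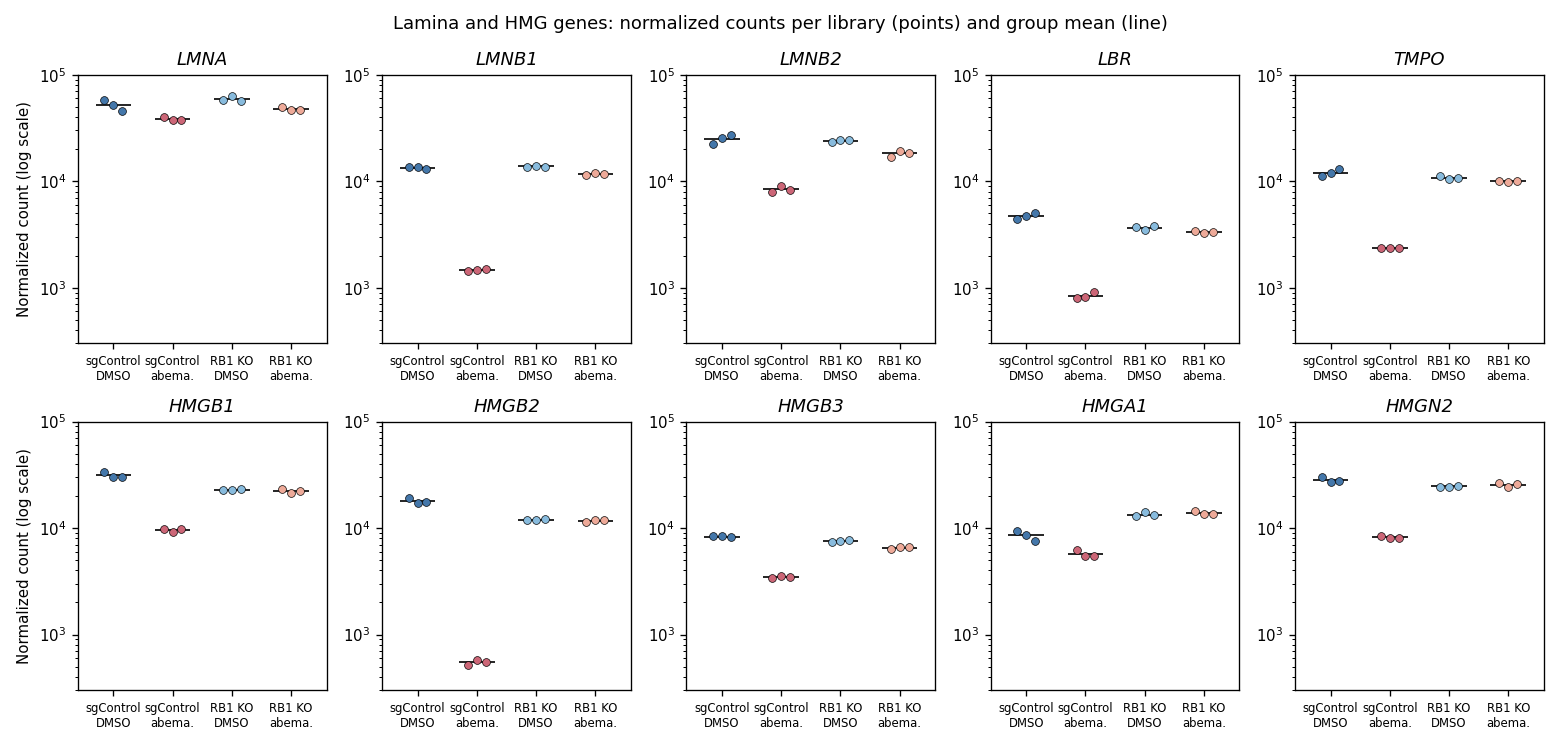
Normalized counts (log scale, vertical axis) of the 10 genes in each of the 12 libraries, by genotype and treatment; points are libraries and lines are means of 3 replicates. For every gene the 3 sgControl libraries in abemaciclib are the lowest, with *HMGB2* (513.0 to 577.4) furthest below its other groups and *LMNA* (37350.3 to 40413.5) closest.

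The genes of both lamina-associated proteins fell in sgControl cells and did not pass in knockout cells. *LBR* (chromosome 1, 225401502 to 225428925, minus strand) encodes the lamin B receptor, which binds heterochromatin protein 1 and also acts in sterol synthesis. In sgControl cells it went from 4416.2, 4740.9 and 4982.3 normalized counts with DMSO to 795.3, 821.8 and 905.6 with abemaciclib. In knockout cells it went from 3712.0, 3495.9 and 3782.2 to 3390.6, 3247.1 and 3345.8, the treated libraries again below the untreated ones. The 5.60-fold fall in sgControl cells (log2 fold change -2.49 ± 0.07, DESeq2 adjusted p = 2.75e-281) stood against a difference of -0.14 ± 0.07 in knockout cells (adjusted p = 0.0994). The latter passed when only the 6 knockout libraries were fitted (adjusted p = 0.0127) and without replicate 1 of sgControl in DMSO (adjusted p = 0.0328).

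*TMPO* (chromosome 12, 98515579 to 98550351, plus strand) encodes the thymopoietins or lamina-associated polypeptides 2, of which the alpha form is soluble, binds lamin A and is a partner of Rb; gene counts do not separate the forms. Normalized counts were 11259.2, 11972.5 and 12965.8 in DMSO-treated sgControl cells and 2350.4, 2341.5 and 2386.4 in abemaciclib. They were 11136.0, 10411.7 and 10700.8 in knockout cells in DMSO and 10158.2, 9819.3 and 10086.7 in abemaciclib. The log2 fold change was -2.35 ± 0.06 in sgControl cells, a 5.12-fold fall. In knockout cells it was -0.10 ± 0.06 (DESeq2 adjusted p = 0.182), and passed with only those 6 libraries fitted (adjusted p = 0.0218).

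*TMPO* overlaps the antisense RNA gene *TMPO-AS1* on the opposite strand, and whether reads were counted by strand is not given in the sources used here. *TMPO-AS1* averaged 10.6% of the *TMPO* level. It went from 1028.6, 924.6 and 906.5 normalized counts to 25.9, 14.2 and 7.0 in sgControl cells, and from 1233.7, 1313.3 and 1263.0 to 1480.1, 1497.2 and 1452.5 in knockout cells. It fell in sgControl cells (log2 fold change -5.98 ± 0.22, DESeq2 adjusted p = 4.19e-160) and rose in the knockout (0.22 ± 0.08, adjusted p = 0.0194).

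Among the HMG-box genes *HMGB2* changed most. *HMGB2* (chromosome 4, 173331376 to 173334432, minus strand) encodes a DNA-bending protein that is abundant in dividing cells. Its normalized counts were 19147.6, 17094.9 and 17696.7 in DMSO-treated sgControl cells and 513.0, 577.4 and 548.8 in abemaciclib, a 32.8-fold fall (log2 fold change -5.04 ± 0.06). Only 0.44% of genes tested had a lower fold change. In knockout cells the counts were 11924.3, 11949.8 and 12192.3 in DMSO and 11502.5, 11975.7 and 11781.3 in abemaciclib. The groups overlapped and the difference of -0.03 ± 0.05 did not pass (DESeq2 adjusted p = 0.719), with a 95% interval of -0.14 to 0.07.

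*HMGB1* (chromosome 13, 30456704 to 30617597, minus strand) encodes the ubiquitous HMG-box protein that also acts as a danger signal outside the cell. It fell from 33866.9, 30153.2 and 30462.8 normalized counts in DMSO to 9898.3, 9202.1 and 9787.9 in abemaciclib in sgControl cells (3.27-fold, log2 fold change -1.71 ± 0.06, DESeq2 adjusted p = 6.76e-180). In knockout cells it was at 22724.3, 22609.3 and 23398.9 in DMSO and at 23388.8, 21311.8 and 22429.9 in abemaciclib. Those libraries overlapped, with a log2 fold change of -0.03 ± 0.06 (adjusted p = 0.731; 95% interval -0.15 to 0.08).

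*HMGB3* (chromosome X, 150980509 to 150990771, plus strand), the third HMG-box member, was at 8334.3, 8341.2 and 8180.6 normalized counts in DMSO-treated sgControl cells and 3403.3, 3538.8 and 3458.5 in abemaciclib. In knockout cells it was at 7415.8, 7571.3 and 7663.2 in DMSO and 6350.9, 6582.7 and 6612.9 in abemaciclib. It fell past the threshold in both genotypes, by log2 fold changes of -1.26 ± 0.04 and -0.21 ± 0.04 (DESeq2 adjusted p = 9.36e-212 and 1.28e-06).

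The nucleosome-binding *HMGN2* (chromosome 1, 26472440 to 26476642, plus strand) fell from 30455.2, 27304.7 and 27912.7 normalized counts to 8344.3, 7988.0 and 8143.3 in sgControl cells (3.50-fold, log2 fold change -1.81 ± 0.05, DESeq2 adjusted p = 2.60e-251). Knockout libraries overlapped, at 24295.4, 24375.5 and 25074.6 in DMSO and 26368.4, 24457.8 and 25746.4 in abemaciclib (0.05 ± 0.05, adjusted p = 0.492).

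*HMGA1* (chromosome 6, 34236873 to 34246231, plus strand) encodes an AT-hook protein that binds the minor groove of AT-rich DNA and builds up in senescence-associated heterochromatin. It was at 9464.4, 8668.2 and 7558.2 normalized counts in DMSO-treated sgControl cells and 6210.6, 5519.0 and 5432.7 in abemaciclib. Knockout cells had 12943.5, 14023.3 and 13229.0 in DMSO and 14476.3, 13430.8 and 13690.7 in abemaciclib, above every sgControl library. The fall of 1.5-fold in sgControl cells (log2 fold change -0.58 ± 0.08, DESeq2 adjusted p = 8.79e-12) was the smallest after that of *LMNA*, and the difference in knockout cells was 0.05 ± 0.08 (adjusted p = 0.716).

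Per kilobase of annotated exon, under the same assumption, the HMG transcripts in sgControl cells in DMSO were in the order *HMGN2* (8955.0 ± 524.1 normalized counts per kilobase, SD, n = 3), *HMGB2* (7488.4 ± 439.5), *HMGB1* (4092.3 ± 267.7), *HMGA1* (3680.1 ± 411.4) and *HMGB3* (2116.9 ± 23.2), where the libraries of *HMGB1* and *HMGA1* overlapped. The order depends on the division by exon length. Before it, *HMGB1* (mean 31494.3 normalized counts) stood above *HMGB2* (17979.8) in that group. After abemaciclib *HMGB2* was the lowest, at 227.6 ± 13.4, below *HMGB3* (885.8 ± 17.4) and *HMGB1* (1251.2 ± 48.6). *HMGN2* (2558.3 ± 56.0) and *HMGA1* (2458.4 ± 183.2) were the highest and overlapped.

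The second comparison asked how the genes respond without *RB1*. In knockout cells 4 of 10 members fell (*LMNA*, *LMNB1*, *LMNB2* and *HMGB3*), none rose and 6 did not pass, with a median log2 fold change of -0.12 and a range of -0.39 to 0.05. Over the 18546 genes tested, 15.1% were lower and 14.9% higher, with a median of 0.02. All 3 lamin genes were thus among the members that fell, each by at most 1.31-fold.

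**Figure D2:**
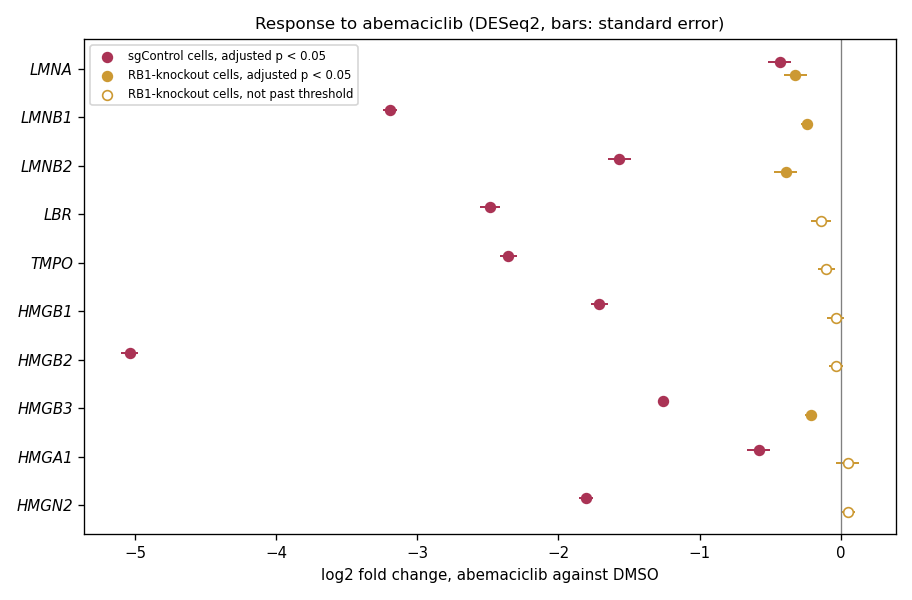
Log2 fold change of each gene in abemaciclib against DMSO (horizontal axis) in sgControl and *RB1*-knockout cells; bars are standard errors, and filled points have a DESeq2 adjusted p under 0.05. All 10 genes fell in sgControl cells, from -0.43 to -5.04, while values in knockout cells lie between -0.39 and 0.05.

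Whether the response depended on genotype was tested as an interaction, the knockout's log2 fold change minus that of sgControl. It passed the threshold in the positive direction for 9 of 10 members, with a median of 1.77 over the 10 against 0.03 over the 20932 genes tested. Among all genes, 21.1% had a higher and 20.3% a lower response in the knockout; with total-count factors these calls went from 4417 and 4251 to 5467 and 3098. The interaction was largest for *HMGB2* (5.00 ± 0.08), followed by *LMNB1* (2.95 ± 0.06), *LBR* (2.35 ± 0.10, DESeq2 adjusted p = 1.43e-131) and *TMPO* (2.25 ± 0.08, adjusted p = 1.41e-164). *HMGN2* (1.86 ± 0.07), *HMGB1* (1.68 ± 0.08), *LMNB2* (1.18 ± 0.11) and *HMGB3* (1.04 ± 0.06) came next, and that of *HMGA1* was 0.63 ± 0.12 (adjusted p = 3.37e-07). For *HMGB2* and *LMNB1* the adjusted p was too small to be represented.

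*LMNA* was the exception. Its interaction was 0.11 ± 0.11 (DESeq2 adjusted p = 0.489), with a 95% interval of -0.11 to 0.34. With total-count factors it became 0.24 and passed (adjusted p = 0.00532); over the other alternatives the adjusted p was up to 0.884.

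Ratios of read counts within 1 library do not depend on how libraries are scaled. The ratio of *LMNA* to *LMNB1* went from 4.33, 3.8 and 3.53 with DMSO to 28.3, 26.2 and 25.0 with abemaciclib in sgControl cells. It was 4.23, 4.49 and 4.15 in knockout cells in DMSO and 4.28, 3.93 and 3.98 in abemaciclib. On the log2 scale the ratio rose by 2.77 in sgControl cells, with no overlap (two-sided exact permutation p = 0.1, the smallest that 3 libraries against 3 allow, adjusted p = 0.15 over 12 comparisons of ratios). In knockout cells the difference was -0.08 and the libraries overlapped (exact permutation p = 0.3, adjusted p = 0.36).

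Both B-type lamins were also unequal. The ratio of *LMNB2* to *LMNB1* went from 1.64, 1.87 and 2.10 to 5.49, 6.22 and 5.56 in sgControl cells, a log2 difference of 1.63 with no overlap. In knockout cells it went from 1.71, 1.72 and 1.77 to 1.48, 1.62 and 1.59, a log2 difference of -0.15, in the other direction and again without overlap (exact permutation p = 0.1 and adjusted p = 0.15 for both). The ratio of *HMGB1* to *HMGB2* went from 1.77, 1.76 and 1.72 to 19.3, 15.9 and 17.8 in sgControl cells, a log2 difference of 3.33 with no overlap (exact permutation p = 0.1, adjusted p = 0.15). In knockout cells it was 1.91, 1.89 and 1.92 and then 2.03, 1.78 and 1.90, which overlapped (exact permutation p = 0.9, adjusted p = 0.9). Between genotypes in abemaciclib the log2 ratios were lower in the knockout by differences of -2.70 for *LMNA* to *LMNB1*, -1.88 for *LMNB2* to *LMNB1* and -3.21 for *HMGB1* to *HMGB2* (exact permutation p = 0.1, adjusted p = 0.15 each). In DMSO these differences were 0.15, -0.10 and 0.12. The libraries overlapped for *LMNA* to *LMNB1* (exact permutation p = 0.3, adjusted p = 0.36) and *LMNB2* to *LMNB1* (exact permutation p = 0.4, adjusted p = 0.436). They did not overlap for *HMGB1* to *HMGB2* (exact permutation p = 0.1, adjusted p = 0.15).

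**Figure D3:**
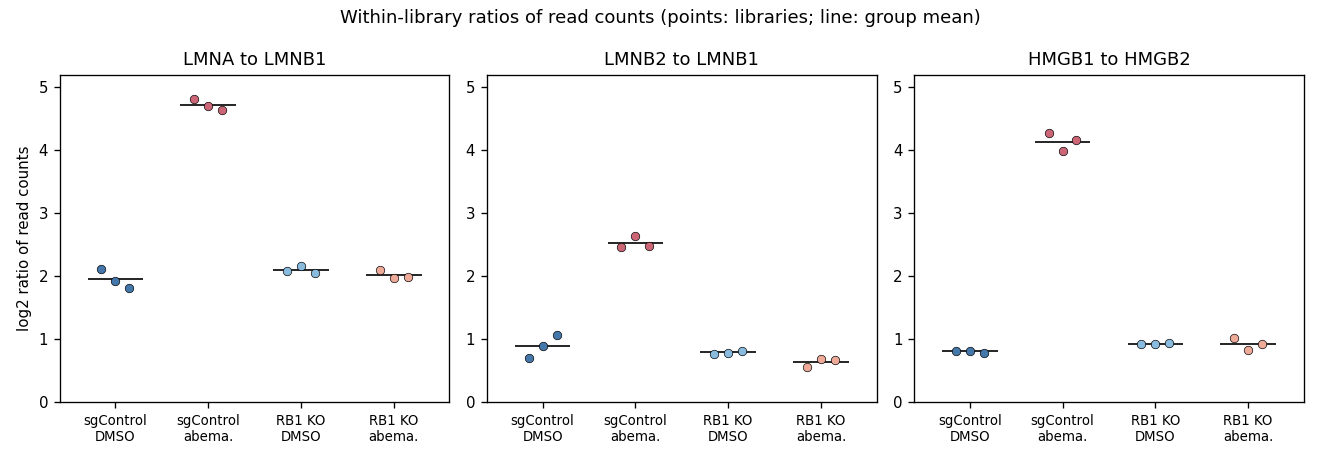
Log2 ratio of read counts within each library (vertical axis) for 3 pairs of genes, by genotype and treatment; points are libraries and lines are means of 3 replicates. In each panel the sgControl libraries in abemaciclib stand alone, at mean log2 ratios of 4.72, 2.52 and 4.14, and the other 3 groups lie close together.

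The genotypes were then compared within each treatment, on the same 12 libraries as the responses, so that these contrasts are not independent of them. In DMSO, before any drug, *HMGA1* was higher in the knockout by 1.57-fold (log2 fold change 0.65 ± 0.08, DESeq2 adjusted p = 8.47e-14). Lower in the knockout were *HMGB2* (-0.58 ± 0.05, adjusted p = 6.83e-25), *HMGB1* (-0.46 ± 0.06, adjusted p = 2.07e-13), *LBR* (-0.36 ± 0.06, adjusted p = 2.22e-07), *HMGN2* (-0.22 ± 0.05, adjusted p = 2.38e-04), *TMPO* (-0.17 ± 0.06, adjusted p = 0.0113) and *HMGB3* (-0.13 ± 0.04, adjusted p = 0.00282). In all, 2 members were higher and 6 lower, against 19.2% higher and 18.2% lower of the 16755 genes tested. The B-type lamins did not pass, at 0.05 ± 0.04 for *LMNB1* (adjusted p = 0.338) and -0.05 ± 0.08 for *LMNB2* (adjusted p = 0.641).

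The other member counted as higher in DMSO, *LMNA*, was at the threshold (0.19 ± 0.08, adjusted p = 0.0494) with overlapping libraries, and it failed in 15 of 18 alternative fits. Among these were the 11 that left out any 1 library other than replicate 1 of sgControl in DMSO (highest adjusted p = 0.258, without replicate 3 of that group). The call of *TMPO* was lost in 5 of 18 (adjusted p = 0.105 with only the groups compared and 0.0631 with total-count factors, 0.0795 without replicate 3 of sgControl in DMSO, and 0.0934 and 0.0583 without replicates 2 and 3 of the knockout in DMSO) and that of *HMGB3* in 1 of 18 (adjusted p = 0.0774 with only the groups compared).

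*HMGB1* lies on the same chromosome as *RB1*, so its neighbourhood was examined. The 17 other genes within 3 Mb of *HMGB1* with a mean of at least 100 normalized counts had a median log2 fold change of 0.00 between the genotypes in DMSO, from -0.87 to 0.55, and 8 were below 0. The 27 genes within 3 Mb of *RB1* (*RB1* left out) had a median of -0.75 and 26 were below 0. The median on all other chromosomes was -0.01. Genes near *RB1* thus also differed between the genotypes, and their part in the genotype and interaction contrasts was not tested. *HMGB1*, at -0.46, was lower than the median of its own neighbours and within their range. Why it was lower in the knockout was not tested.

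In abemaciclib all 10 members were higher in the knockout, against 28.5% higher and 27.4% lower of 21529 genes tested, and the median was 1.46 against 0.02 over all genes. The differences ran from 0.30 ± 0.08 for *LMNA* (DESeq2 adjusted p = 5.09e-04) to 4.42 ± 0.06 for *HMGB2*, a 21.5-fold difference. *LMNB1* was 8.02-fold higher (3.00 ± 0.05), *TMPO* 4.25-fold (2.09 ± 0.06) and *LBR* 3.95-fold (1.98 ± 0.07). *HMGA1* was 2.42-fold higher (1.28 ± 0.08) and was the member for which the difference between genotypes was also clear in DMSO in the same direction.

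**Figure D4:**
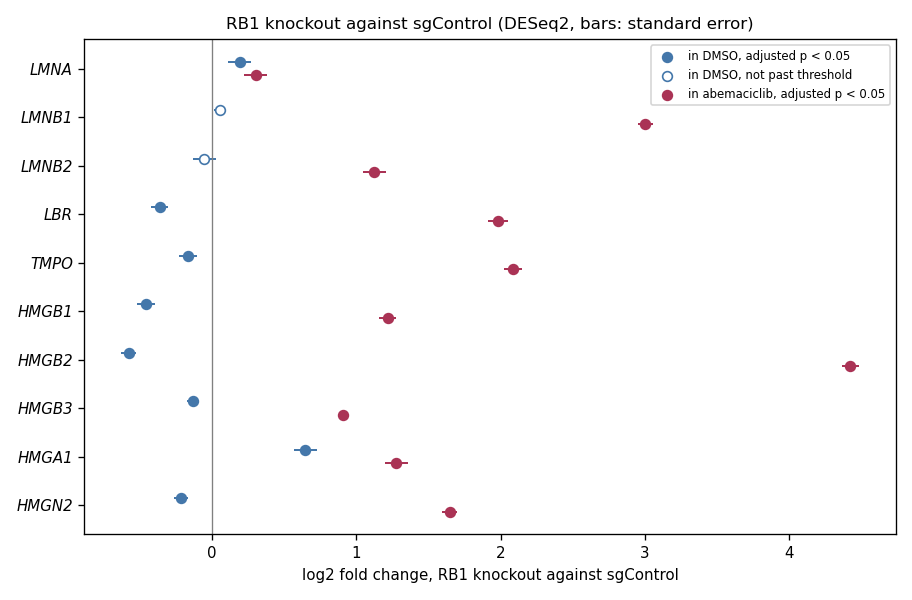
Log2 fold change of *RB1* knockout against sgControl (horizontal axis) for each gene, in DMSO and in abemaciclib; bars are standard errors, and filled points have a DESeq2 adjusted p under 0.05. In DMSO the values lie between -0.58 and 0.65, and in abemaciclib they run from 0.30 to 4.42.

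Other genes of the same structures were counted over lists of their own. The counts are to be read against the shares over all genes tested. These were 25% higher and 24.8% lower in sgControl cells, and 14.9% higher and 15.1% lower in knockout cells. For the interaction they were 21.1% higher and 20.3% lower. Among 22 other nuclear envelope and lamin-processing genes, 14 fell and 4 rose in sgControl cells (median log2 fold change -0.22), and 5 fell and 3 rose in knockout cells (median 0.01). For the interaction, 8 passed in the positive and 3 in the negative direction. *SYNE2*, which encodes the giant linker protein nesprin-2, fell most (-2.29 ± 0.15, DESeq2 adjusted p = 1.87e-49; interaction 2.78 ± 0.21), followed by *SUN2*, whose product binds nesprins across the envelope (-1.16 ± 0.05; interaction 0.91 ± 0.07). *TMEM120A* (0.94 ± 0.10) and *TOR1AIP2*, which encodes a torsin activator (0.65 ± 0.10), rose, with interactions of -0.71 ± 0.14 and -0.54 ± 0.14.

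Of 11 other HMG-box, HMGA and HMGN genes, 10 were tested. In sgControl cells 7 fell and none rose (median -0.46, the same with *HMGA2* at its bound), in knockout cells 2 fell and 2 rose (median -0.06), and 8 interactions passed in the positive direction and none in the negative. The histone chaperone subunit gene *SSRP1* (-1.30 ± 0.06; interaction 1.16 ± 0.08) and *HMGN3* (-1.11 ± 0.08; interaction 0.62 ± 0.11) showed the most negative responses among those with a mean of at least 100 normalized counts. *HMGA2*, an oncofetal relative of *HMGA1* chosen after its values were seen, had 14 to 39 reads in sgControl libraries in DMSO and none in abemaciclib. Against a floor of 3 counts per library, which covers counting error only, it was at least 7.45-fold lower in abemaciclib. Knockout cells had 31.4 to 46.3 normalized counts in DMSO and 68.6 to 85.3 in abemaciclib, at least 23.3-fold above sgControl cells in abemaciclib.

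Among 11 genes for heterochromatin proteins that LBR binds and for enzymes and partners that set up heterochromatin, 7 fell and 1 rose in sgControl cells (median -0.51), 2 fell and 2 rose in knockout cells (median -0.01), and 6 interactions passed in the positive direction and none in the negative. *CBX5*, the gene of heterochromatin protein 1 alpha, fell by 0.97 on the log2 scale (SE 0.10, DESeq2 adjusted p = 2.65e-23; interaction 1.08 ± 0.13), and the methyltransferase gene *KMT5C* by 0.74 (SE 0.07). *CBX3* had an interaction of 0.75 ± 0.09. The H3K9 methyltransferase gene *SETDB1* rose (0.34 ± 0.06).

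Of 22 senescence markers and secreted factors, 14 were tested in sgControl cells, where 5 rose and 4 fell (median 0.22). Over all genes tested there, 25% rose and 24.8% fell. Among 13 tested in knockout cells 3 rose and 2 fell (median 0.05), against 14.9% and 15.1% of all genes. Of 14 interactions 4 passed in the positive direction and 5 in the negative, against 21.1% and 20.3% of all genes. The CDK inhibitor genes *CDKN2A* (-3.13 ± 0.10) and *CDKN1A* (-2.12 ± 0.06, DESeq2 adjusted p = 1.15e-248), which are often high in senescent cells, were the most negative in sgControl cells. Their interactions were 3.18 ± 0.13 and 1.77 ± 0.09. The binding-protein genes *IGFBP3* (3.90 ± 0.19; interaction -3.85 ± 0.29) and *IGFBP5* (1.97 ± 0.08; interaction -3.25 ± 0.11) rose most. *IL6*, *IL1A*, *IL1B* and *MMP3* were at 0.0 normalized counts in every library.

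The 14 proliferation reference genes moved with the lamina and HMG genes. All 14 fell in sgControl cells (median -3.36), most of all *RRM2*, for a subunit of ribonucleotide reductase (-8.21 ± 0.14), and *MKI67*, for the proliferation antigen Ki-67 (-6.25 ± 0.20, DESeq2 adjusted p = 1.65e-210), and all 14 interactions passed in the positive direction (median 3.21). In knockout cells 8 fell and 1 rose (median -0.17). The part of the share of cycling cells in the changes of the 10 genes was not tested.

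**Figure D5:**
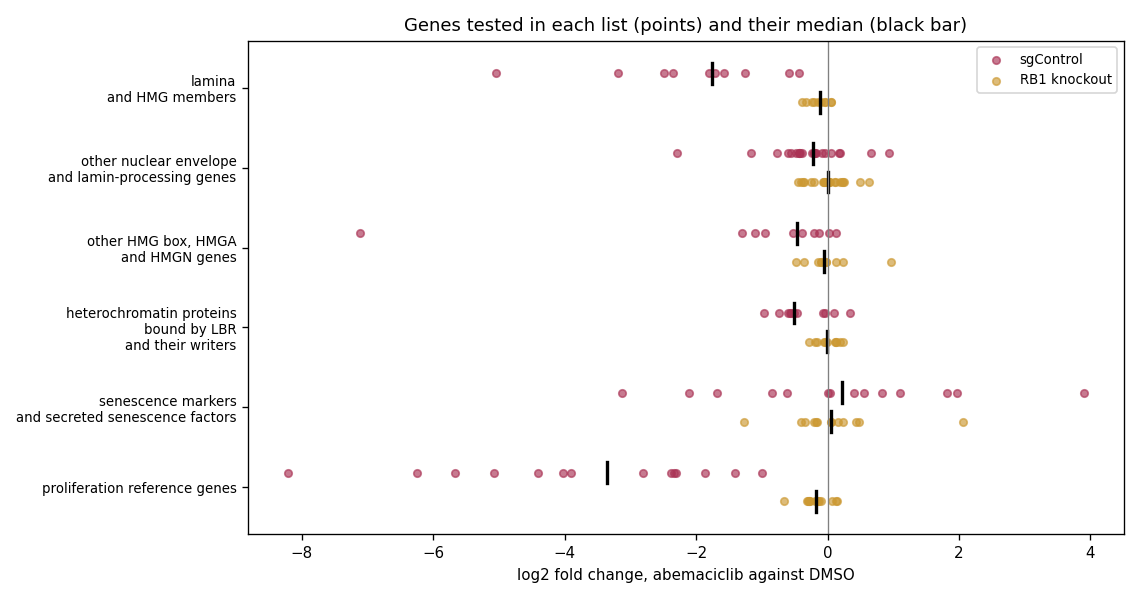
Log2 fold change in abemaciclib against DMSO (horizontal axis) of every tested gene in 6 gene lists, in sgControl and *RB1*-knockout cells; points are genes and black bars are medians. The lamina and HMG genes (median -1.76) lie between the proliferation genes (-3.36) and the other lists in sgControl cells; the point near -7 is the fitted value of *HMGA2*, for which only a bound holds.

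The patterns most like those of 4 members were looked up among 11873 other genes, by Pearson correlation of log2 normalized counts over the 12 libraries, which share 4 groups, so that the values are descriptions only. *LMNB1* was most like *FAM83D*, *PLK1*, *NCAPD2*, *PCNA* and *KIF20A* (0.999 each), and *HMGB2* most like *NCAPG*, *NMU*, *BIRC5*, *CCNA2* (0.999 each) and *DEPDC1B* (0.998). *LMNA* was most like *PPP2R1A* (0.993), *PAF1* (0.988), *NUDC* (0.981), *RABGGTA* (0.980) and *LAS1L* (0.979). *HMGA1* was most like *EPHB4* (0.992), *SOX12* and *PGM5* (0.991 each), *ZC4H2* and *NFATC1* (0.990 each). None of these lists shared a gene with another.

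Several HMG genes have processed pseudogenes that can take or give reads. The table held 48 rows named as *HMGB1* pseudogenes, 36 for *HMGN2*, 29 for *HMGB3*, 8 for *HMGA1*, 2 for *TMPO* and 1 for *HMGB2*. Their reads made up 2.67 to 3.29% of gene plus pseudogene reads for *HMGB1* and 3.59 to 4.52% for *HMGN2*, and less than 1% for the others. The summed *HMGB1* pseudogene rows moved with the gene, from 936.9 to 1062.2 normalized counts in sgControl cells in DMSO to 260.4 to 296.9 in abemaciclib, and how reads with several matches were counted is not given in the sources used here.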

How the data were processed

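RNA was sequenced from 12 ZR-75-1 samples. Per the labels and the study's methods, the authors trimmed reads with BBDuk, aligned them to hg38 with STAR 2.7.5b and counted them per gene with featureCounts 2.0.1. The deposited values are raw counts per gene symbol, neither normalized nor pooled. The library kit is a directional whole-transcript one in the labels but a 3′ one in the general methods, and levels per kilobase assume the former.

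Of 60656 rows, 44 without a symbol were left out (0% of counts to the digits kept). All 12 columns were matched to samples by name. The study's own tool, DESeq2 (1.42.0, under R 4.3.3), was fitted to all genes and 12 samples with a term for group, median-of-ratios size factors and two-sided Wald tests, adjusted by Benjamini–Hochberg over the genes left by independent filtering (called: adjusted p under 0.05). A normalized count is the count over the library's size factor. The scripts were tested on simulated data. Replicate pairs differed by a chi-square of at least 3.32 per gene, so none was a repeat of another. Replicates of sgControl in DMSO were the most uneven, at 45.7, 95.3 and 16.6, against at most 16.4 in the other groups. The labels call the replicates biological and do not say whether they were separate cultures, so p-values measure only the spread between these samples, which may be technical.

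Positions and exon lengths came from GENCODE release 44 on GRCh38, and promoters from RefSeq (GRCh38.p14). The members and lists were chosen with earlier results of these data known. All 10 members are named, and from each list the 2 called genes with the highest and the 2 with the lowest fold change (mean of at least 100 normalized counts) in sgControl and in the interaction. Alternatives were edgeR 4.0.16 quasi-likelihood tests, TMM or total-count factors, a filter of 10 counts in 3 samples, fits to the compared groups only, a replicate block, and leaving out each library. Deviations from group means of same-numbered samples of both genotypes in abemaciclib had correlations of 0.15, 0.26 and 0.11. Between treatments in sgControl cells these were 0.25, 0.22 and -0.08, and samples of different numbers there reached 0.43. Such values do not settle whether the numbers pair samples. Protein sequences were not used here. The level of 1 marker gene is not reported here.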

Additional observations from a re-analysis of the deposited data

Results flagged for a closer look

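The response to abemaciclib differed between *RB1*-knockout and sgControl cells, by the DESeq2 interaction, for 9 of the 10 genes. The differences on the log2 scale were 5.00 for *HMGB2*, 2.95 for *LMNB1*, 2.35 for *LBR*, 2.25 for *TMPO*, 1.86 for *HMGN2*, 1.68 for *HMGB1*, 1.18 for *LMNB2*, 1.04 for *HMGB3* and 0.63 for *HMGA1*, each a smaller fall, or none past the threshold, in the knockout. Groups of 3 libraries were too small for a check of single libraries that stand apart.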

How the results depend on the processing

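In sgControl cells, in the interaction and between genotypes in abemaciclib, every member that passed kept its direction and its call under all alternatives run. Over single genes, 863 of the values under alternatives kept direction and side of the threshold, 21 lost the call, 4 gained it and 2 changed sign. In DMSO the number of members higher in the knockout was 1 in place of 2 with edgeR, TMM factors, the filter on low counts or only the groups compared, and 1 to 2 when a library was left out; *LMNA* is the gene lost, and the cause was not tested. Values that changed sign were all near 0: *HMGB1* in the knockout (-0.07 to 0.00019 as libraries were left out, the latter without replicate 2 of the knockout in abemaciclib), *LMNB2* between genotypes in DMSO (-0.13 to 0.01, the latter without replicate 3 of sgControl in DMSO), and the log2 ratio of *HMGB1* to *HMGB2* in the knockout, -0.05 to 0.05 as libraries were left out, with 0.003 without replicate 3 of the knockout in DMSO.

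With the replicate block, the numbers of members called were 10 lower in sgControl cells, 4 lower in the knockout, 9 higher in the interaction, 2 higher and 6 lower between genotypes in DMSO and 10 higher in abemaciclib, and no member's call changed. For each sgControl sample, the knockout sample that correlated best with it had the same number in 3 of 3 cases in abemaciclib and 0 of 3 in DMSO. For each DMSO sample, the best abemaciclib sample had the same number in 2 of 3 cases in sgControl and 1 of 3 in the knockout. The best match was looked up in this direction only. With 3 libraries per group, exact tests of ratios could not fall below p = 0.1.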
